A study of Mus musculus with 12 samples.

Results

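Aurothioglucose was compared with saline in the lungs of newborn mice that breathed room air, using the 3 libraries of each injection that the labels place in room air, 6 of the 12 libraries in the series. Both groups were C57/Bl6 mice injected into the peritoneum on day 0. One group received saline and the other received aurothioglucose at 25 mg/kg. The remaining 6 libraries came from mice that had the same injections and then more than 95% oxygen for 72 h (hyperoxia), again 3 per injection, and they are used here only as a second set of libraries. RNA was taken from whole lung after the lavage fluid had been removed, so each value averages over the cell types left in the lung. A smaller number of cells of a type cannot be told apart from less RNA per cell. The labels do not say which animals or litters the libraries came from, so p-values measure only the spread between these samples, which may be technical. Of the 23478 genes in the count table, 3350 had no count in any library and 15761 had enough counts to be tested.

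Aurothioglucose is a gold compound that blocks thioredoxin reductase, a selenium-containing enzyme which returns oxidised thioredoxin to its working form with electrons from NADPH. When thioredoxin reductase is blocked, or when electrophiles accumulate, the transcription factor NRF2 escapes its inhibitor KEAP1 and turns on genes for glutathione synthesis, NADPH supply, quinone and heme breakdown and the thioredoxin system itself. The newborn mouse lung is in its saccular and early alveolar stage, when type 2 cells make surfactant and a capillary network is growing.

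The 6 libraries held 14331749 to 15916703 counts after saline and 14589812 to 17368904 after aurothioglucose. Lung markers were present in all of them: the 12 alveolar type 2 genes summed to between 14907 and 19495 CPM (counts divided by the library total as scaled by TMM), the 11 type 1 genes to between 5560 and 6589 CPM and the 20 endothelial genes to between 4121 and 4737 CPM. Xist and Y-linked transcripts showed that the 3 saline libraries were male, whereas aurothioglucose replicates 1 and 3 were female and replicate 2 was male. Sex therefore moved with the injection in room air. In hyperoxia the saline libraries were 2 female and 1 male, and the aurothioglucose libraries 1 female and 2 male. List medians and named genes were recomputed with sex as a covariate over all 12 libraries, over the male libraries alone and with each room air library left out. Values that turned sign or moved by over 1.5 times under the sex settings, or for a list under the omissions, are given beside the result, singly or as a range. Genes cited only as list members or chosen after their values were seen were not recomputed. These were Taldo1, Me1, G6pdx, Eif2ak3, Isg15, Slc34a2, Etv5, Sftpd, Neat1, Nr4a1 and Pde4b, and the part of sex in their values was not tested. Albumin was at 73.2 CPM in saline replicate 2 and between 0.921 and 3.08 CPM in the other 5 libraries. The fetal muscle myosin Myh8 was at 15.3 CPM in aurothioglucose replicate 2 against 2.12 to 5.27 CPM elsewhere.

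No single gene passed the test in room air. The quasi-likelihood test of edgeR called 0 of 15761 genes (percent called 0) at an adjusted p of 0.05, and the smallest adjusted p was 0.265. At an unadjusted p of 0.05 it listed 949 genes (6.02% of those tested), 486 higher after aurothioglucose (3.08%) and 463 lower (2.94%). DESeq2 called 16 genes, 7 higher and 9 lower, and limma-voom called 0. The aurothioglucose effect in hyperoxia minus that in room air was called for 0 genes by edgeR (percent called 0), with 465 genes at an unadjusted p of 0.05 (2.95%), and DESeq2 and limma-voom also called 0.

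Effects were small next to their errors. The median size of the log2 fold change, aurothioglucose minus saline, was 0.13 over the tested genes, with a median standard error of 0.17. Hyperoxia against room air after saline, a comparison that shares the saline room air libraries, had a median size of 0.21 and 1449 genes called by edgeR, which is 9.19% of those tested. That comparison set 2 female and 1 male libraries in hyperoxia against 3 male libraries in room air. Aurothioglucose in hyperoxia gave a median size of 0.12. Over all tested genes the median signed log2 fold change was 0.01, with 8320 genes above 0 and 7441 below.

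The sign of the fold change moved with abundance. Among the 1185 genes under 1 CPM the median log2 fold change was -0.12, and it was 0.02 among the 5426 genes from 20 to 100 CPM, 0.05 among the 2291 from 100 to 1000 CPM and 0.08 among the 73 above 1000 CPM. In 986 genes all 3 aurothioglucose libraries were above all 3 saline libraries (6.26% of those tested), and in 901 all 3 were below (5.72%). In the 100 to 1000 CPM class 11.7% of genes were higher without overlap and 2.01% were lower. Above 1000 CPM the shares were 21.9% and 0%, whereas under 1 CPM they were 2.95% and 6.33%. TMM scaling factors were 1.01 to 1.02 in the saline libraries and 0.973, 1.02 and 0.962 in the 3 aurothioglucose libraries; the part of library composition in this trend was not tested. Fold sizes shrank with abundance, from a median of 0.55 under 1 CPM to 0.07 from 100 to 1000 CPM, and a log2 change of 1 was exceeded by 24.1% of genes under 1 CPM and by 0.0873% of those from 100 to 1000 CPM.

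**Figure D1:**
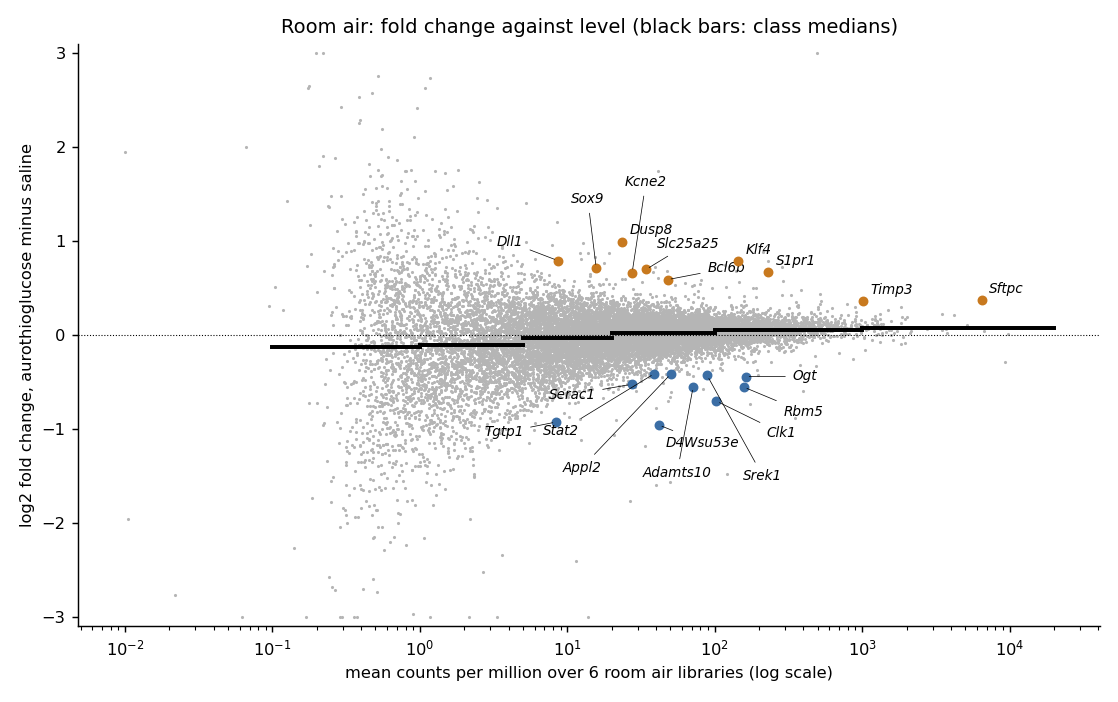
Log2 fold change in room air (aurothioglucose minus saline, vertical axis) against mean CPM of the 6 room air libraries (horizontal axis, log scale); each grey point is a gene, 13 genes beyond a log2 change of 3 are drawn at the edge, black bars are the medians of 6 abundance classes, and the 10 genes of smallest p in each direction are named. The class medians climb from -0.12 below 1 CPM to 0.08 above 1000 CPM, and the named genes lie at the rim of the cloud for their level.

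Replicates within the aurothioglucose group differed from each other about as much as they differed from saline. The root mean square difference of log2 CPM was 0.263 to 0.283 between saline libraries, 0.283 to 0.374 between aurothioglucose libraries and 0.289 to 0.371 across the 9 pairs of 1 library from each group. Along the first component of the 500 most variable genes (28.8% of their variance) the saline libraries lay between -13.8 and -3.63, aurothioglucose replicate 2 lay among them at -6.42, and replicates 1 and 3 lay at 10.95 and 24.6. Replicate 2, the male library of its group, stood apart on the second component (22.2%) at 22.9, with the other 5 libraries between -14.8 and 6.05. When the effect was taken from 1 library of each group and correlated across genes with the effect from 2 libraries it did not share, Pearson's r over 18 such pairs ranged from -0.18 to 0.36, with a median of 0.10. The 6 pairs that set replicate 1 against replicate 3, the female libraries, gave 0.27 to 0.36, and those that involve replicate 2 gave -0.18 to 0.17. These are correlations across genes, which are not independent replicates.

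The genes named next had the smallest p in their direction among those of at least 5 CPM whose groups did not overlap, and none of them passed the adjusted threshold in edgeR. On the higher side S1pr1, the endothelial receptor for sphingosine 1-phosphate that tightens vessel junctions, stood at 186, 169 and 178 CPM after saline and at 241, 276 and 333 CPM after aurothioglucose. All 3 aurothioglucose libraries were above all saline libraries, and the log2 fold change was 0.67 ± 0.13 (SE, n = 3 per group, edgeR adjusted p = 0.265, DESeq2 adjusted p = 0.000673). S1pr1 lies at chr3:115710433-115715055.

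Klf4, a zinc finger transcription factor of quiescent endothelium and epithelium, stood at 113, 107 and 98.2 CPM after saline and at 128, 203 and 218 CPM after aurothioglucose, a log2 fold change of 0.79 ± 0.18 (SE, n = 3 per group, edgeR adjusted p = 0.395). Replicate 1 was nearest to the saline range. Bcl6b, a transcriptional repressor expressed in endothelium, was at 36.8, 38.6 and 39.4 CPM against 52.4, 65.4 and 55.1 CPM. The groups were separated by more than the spread within saline, with a log2 fold change of 0.59 ± 0.12. Dusp8, a phosphatase that switches off JNK and p38 MAP kinases, was at 15.7, 12.9 and 18.8 CPM against 23.1, 30.5 and 40.7 CPM, a log2 fold change of 0.99 ± 0.19.

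The other higher genes of this kind were Slc25a25, a mitochondrial ATP and phosphate carrier (log2 fold change 0.70), the Notch ligand Dll1 (0.79), the distal epithelial and cartilage factor Sox9 (0.71), the potassium channel subunit Kcne2 (0.67), the metalloprotease inhibitor Timp3 (0.37) and the surfactant gene Sftpc (0.37). Dll1 was tightly grouped, at 6.09, 6.70 and 6.15 CPM after saline and at 10.5, 10.8 and 11.6 CPM after aurothioglucose. Sftpc, which encodes surfactant protein C and was among the 5 non-mitochondrial genes with the highest mean CPM, read 5840, 5459 and 5766 CPM against 6827, 7408 and 7792 CPM.

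On the lower side Clk1, a kinase that phosphorylates SR splicing factors, was at 114, 139 and 128 CPM after saline and at 84.1, 85.3 and 64.6 CPM after aurothioglucose, a log2 fold change of -0.70 ± 0.12 (SE, n = 3 per group, edgeR adjusted p = 0.265, DESeq2 adjusted p = 0.000375). Rbm5, an RNA-binding splicing regulator, was at 179, 197 and 183 CPM against 142, 131 and 108 CPM (log2 fold change -0.55 ± 0.10, edgeR adjusted p = 0.265). In both genes the highest aurothioglucose library was well under the lowest saline library.

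Srek1, a splicing regulatory protein rich in glutamate and lysine, had a log2 fold change of -0.43. Ogt, the enzyme that adds O-linked N-acetylglucosamine to nuclear and cytosolic proteins, read 185, 173 and 201 CPM against 137, 153 and 122 CPM (-0.44). Ogt lies on the X chromosome, and over male libraries alone it was at -0.28. D4Wsu53e, the gene now named Rsrp1, which encodes a protein rich in arginine and serine, read 53.5, 60.1 and 51.2 CPM against 26.6, 39.7 and 18.7 CPM (-0.96 ± 0.20), with the 2 female libraries below the male one. Serac1, a phospholipid remodelling protein, had -0.52, the extracellular protease Adamts10 -0.55 and the endosomal adaptor Appl2 -0.42. The interferon-inducible GTPase Tgtp1 (-0.93), which has a near-identical neighbour and is uncertain for that reason, and the interferon signal transducer Stat2 (-0.41) completed the 10.

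Of the 10 lower genes, Clk1 is in the list of SR proteins, CLK kinases and related splicing genes, and Rbm5, Srek1 and D4Wsu53e are not. Of the list's 23 tested members 0 were higher and 3 lower without overlap (Clk1, Clk4 at -0.35 and Srsf11 at -0.23), against 6.26% and 5.72% of all genes. At an unadjusted p of 0.05, 0 were higher and 4 lower (3.08% and 2.94% of all genes), or 1 and 2 with sex as a covariate. The median log2 fold change was -0.003 against 0.01 over all genes, 0.01 with sex as a covariate, 0.006 over male libraries alone and -0.04 to 0.02 with 1 library left out. Srsf11 was at -0.12 over male libraries alone. The nuclear RNAs Malat1 and Neat1 are given here beside them. Malat1 was at 9031, 10218 and 11330 CPM after saline and at 8521, 9327 and 7228 CPM after aurothioglucose (-0.29 ± 0.13, and -0.12 over male libraries alone). Neat1, chosen after its values were seen, was at 238, 209 and 199 CPM against 106, 222 and 60.8 CPM. The 2 low libraries were the female ones. Over male libraries alone Clk1 was at -0.57, Rbm5 at -0.50, Srek1 at -0.46, Clk4 at -0.32 and D4Wsu53e at -0.46. The part of the female libraries in the lower values of these genes was not tested.

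**Figure D2:**
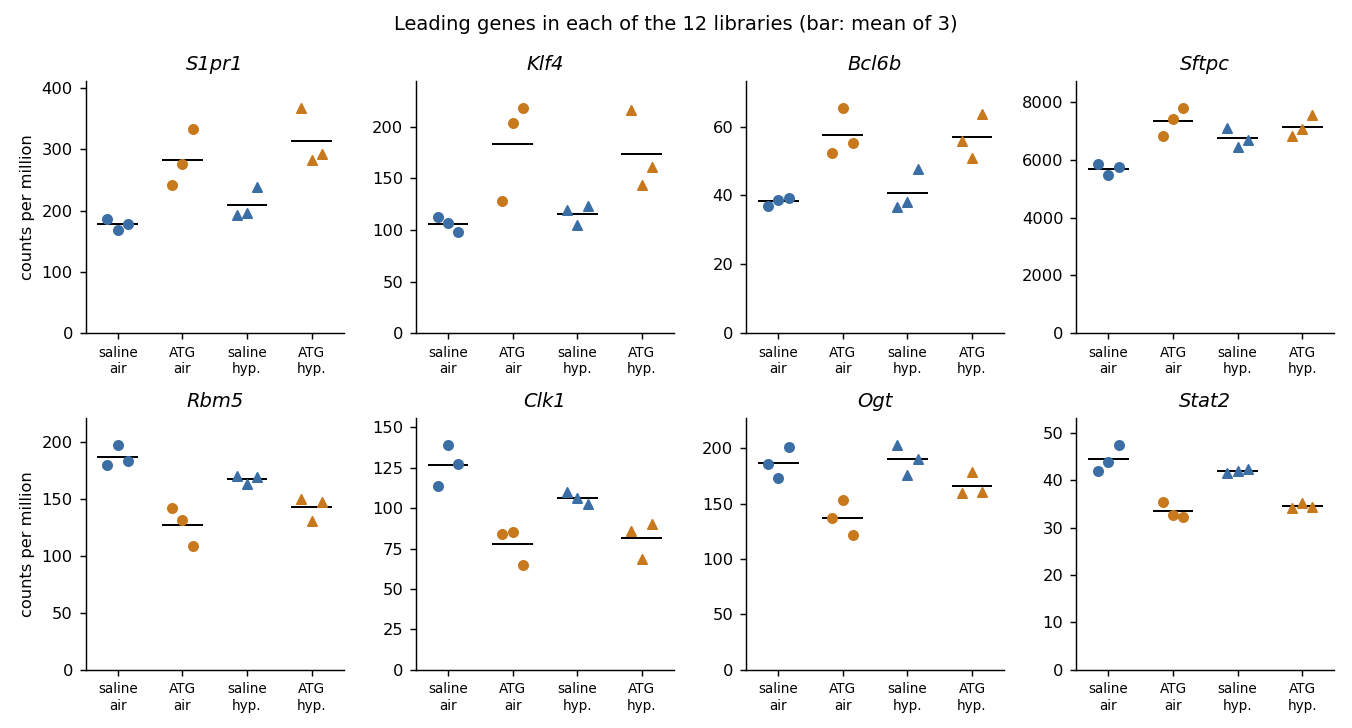
CPM (vertical axes, from 0) of 8 leading genes in each library of the 4 groups; circles are room air, triangles hyperoxia (hyp.), blue is saline, orange is aurothioglucose (ATG), and bars are means of 3. In room air S1pr1, Klf4, Bcl6b and Sftpc are higher and Rbm5, Clk1, Ogt and Stat2 lower after aurothioglucose without overlap, and in hyperoxia Sftpc and Ogt overlap.

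All 20 of these genes kept their direction in each of the 15 alternative analyses. They had been chosen for small p and separated groups in the same libraries. A kept direction was therefore nearly fixed in advance and adds no support. With sex as a covariate S1pr1 was at 0.76, Klf4 at 0.91, Clk1 at -0.73 and Rbm5 at -0.55. Over the male libraries alone, which leaves aurothioglucose replicate 2 against the 3 saline libraries in room air, the log2 fold change was 0.64 for S1pr1, 0.94 for Klf4, 0.39 for Sftpc and -0.57 for Clk1. Of the 20, 3 changed by more than 1.5 times there: Timp3 moved to 0.22, D4Wsu53e to -0.46 and Ogt to -0.28.

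Of 30 tested NRF2 targets 26 were above 0 and 4 below, and none passed the test. Of the 30, 13 were higher and 0 lower without overlap (6.26% and 5.72% of all genes). At an unadjusted p of 0.05, 10 were higher and 0 lower (3.08% and 2.94% of all genes), or 7 and 0 with sex as a covariate. The median log2 fold change was 0.20 against 0.01 over all genes. Txnrd1, the cytosolic thioredoxin reductase that gold compounds bind, stood at 49.8, 54.4 and 50.9 CPM after saline and at 69.2, 57.4 and 58.9 CPM after aurothioglucose, without overlap (log2 fold change 0.26 ± 0.09, SE, n = 3 per group, edgeR adjusted p = 0.818). It was 0.16 over male libraries alone and 0.16 without aurothioglucose replicate 1, the highest library. Txnrd2, the mitochondrial reductase, was lower without overlap, at 5.48, 5.21 and 5.53 CPM against 4.34, 4.51 and 4.37 CPM (-0.29 ± 0.20).

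Among the targets for glutathione supply, the cystine importer Slc7a11 read 16.6, 14.1 and 8.42 CPM against 19.3, 28.4 and 18.8 CPM (0.76 ± 0.22). Gclm, the modifier subunit of glutamate-cysteine ligase, read 32.3, 36.7 and 38.1 CPM against 45.1, 38.5 and 52.5 CPM (0.35 ± 0.12), and its catalytic partner Gclc overlapped between groups (0.08 ± 0.11). Both Slc7a11 and Gclm were separated, but aurothioglucose replicate 2, the male one, read close to the saline range for Gclm, which was at 0.11 over male libraries alone. Gclc was at 0.19 with sex as a covariate and 0.34 over male libraries alone. Sulfiredoxin (Srxn1), which repairs overoxidised peroxiredoxins, read 11.4, 10.3 and 12.8 CPM against 14.3, 15.9 and 15.3 CPM (0.40 ± 0.12).

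The iron storage genes Fth1 (0.30) and Ftl1 (0.36) were also higher without overlap, though ferritin genes have many near-identical copies and are uncertain. The genes Taldo1 (0.37), Me1 (0.21) and G6pdx (0.19), tied to NADPH supply, were each higher without overlap. They were picked from the NRF2 list, and enzymes of NADPH supply were not counted as a list of their own. Hmox1, which breaks down heme, overlapped at 34.3, 28.4 and 25.8 CPM against 33.1, 38.7 and 32.1 CPM (0.23 ± 0.13, and 0.40 over male libraries alone). Nqo1, a widely used NRF2 readout, overlapped too, at 4.52, 4.59 and 5.59 CPM against 4.08, 4.51 and 4.67 CPM (-0.15, 95% confidence interval -0.61 to 0.31, and -0.007 with sex as a covariate).

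The neighbouring lists gave smaller medians. Over all genes 6.26% were higher and 5.72% lower without overlap. In the thioredoxin system 4 of 25 genes were higher and 1 lower without overlap (median 0.12, and 0.08 with sex as a covariate). In glutathione metabolism 6 of 32 were higher and 0 lower (median 0.15, with 0.24 over male libraries alone, 0.03 without aurothioglucose replicate 2 and 0.09 without saline replicate 3). Among selenoproteins 3 of 22 were higher and 2 lower (median 0.07, with 0.12 with sex as a covariate, 0.20 over male libraries alone, -0.01 without aurothioglucose replicate 2, 0.02 without saline replicate 3 and 0.12 without aurothioglucose replicate 3). Peroxiredoxin 2, a thiol peroxidase, had 0.24. Metallothioneins bind heavy metals, and Mt1 (0.22) and Mt2 (0.16), near-identical genes that are uncertain, overlapped between groups and were at 0.41 and 0.60 over male libraries alone; Mt2 was at 0.30 with sex as a covariate. The NRF2 median was 0.22 with sex as a covariate, 0.26 over male libraries alone and 0.18 to 0.22 when 1 library was left out.

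The antioxidant response element is the site NRF2 binds with a small MAF protein. Its core, searched as TGACNNNGC on both strands in the 250 bases before each start that RefSeq lists for a gene (GRCm38.p6), was present at 1 or more starts for 11.5% of 27025 genes and for 7 of the 25 NRF2 targets with such a window (28%). The 27025 include genes not tested here, and among the 12316 tested genes with a window 1689 held the core. Of those 7, 3 were higher without overlap, and the sequences of those 3 are shown with the match in capitals; in each the match is on the strand opposite to the gene, so the capitals read as its reverse complement. They come from chr10:82859099-82859137 (Txnrd1), chr3:122245408-122245446 (Gclm) and chrX:74428914-74428952 (G6pdx), each written along the gene's own strand. RefSeq lists several starts for Txnrd1, and its match is 83 bases before one that lies inside the gene's span of chr10:82833951-82897724, not before the outermost start.
Txnrd1: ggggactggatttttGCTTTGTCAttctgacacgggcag
Gclm: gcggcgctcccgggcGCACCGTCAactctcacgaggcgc
G6pdx: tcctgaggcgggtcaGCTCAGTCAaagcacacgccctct
The 7 members with the core had a median log2 fold change of 0.15 and those without it 0.24. The 1682 tested genes with the core outside the list had a median of 0.02, with 6.12% higher and 5.77% lower without overlap.

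Of 22 tested endoplasmic reticulum (ER) chaperone and unfolded protein response genes 19 were above 0 and 3 below, from -0.26 to 0.33, and none passed the test. ER chaperones fold secreted proteins such as surfactant and collagen, and the unfolded protein response turns their genes on. Without overlap 10 were higher and 1 lower, against 6.26% and 5.72% of all genes and 11.7% and 2.01% of genes from 100 to 1000 CPM. At an unadjusted p of 0.05, 5 were higher and 1 lower (3.08% and 2.94% of all genes), or 3 and 0 with sex as a covariate. The median log2 fold change was 0.12. Hspa5, the ER HSP70 also called BiP, read 800, 813 and 882 CPM after saline and 930, 1045 and 982 CPM after aurothioglucose, without overlap (0.24 ± 0.08, SE, n = 3 per group, edgeR adjusted p = 0.818).

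Calreticulin (Calr), a calcium-binding lectin chaperone, read 229, 250 and 243 CPM against 292, 288 and 279 CPM (0.25 ± 0.08). Hsp90b1, the ER HSP90, had 0.17 and the HSP70 co-chaperone Dnajc3 0.20; over male libraries alone they were at 0.10 and 0.08. The member lower without overlap was Eif2ak3, which encodes the stress sensor PERK, at 27.9, 25.1 and 28.6 CPM against 21.0, 22.7 and 24.3 CPM (-0.26 ± 0.12). The list's median was 0.09 to 0.13 in the alternatives run, and 0.00 for aurothioglucose in hyperoxia, where 1 gene was higher and 1 lower without overlap (5.55% and 5.54% of all genes in that arm).

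The ER stress response element, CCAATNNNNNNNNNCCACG, is the site through which ATF6 with NF-Y acts on these genes. On both strands of the same windows it was present for 0.13% of genes (35 of 27025) and for 7 of the 19 list members with a window (36.8%). Among the 12316 tested genes with a window 20 held it. Of those 7, 4 were higher without overlap and 0 lower, and their windows are shown because they are members separated between the groups; capitals mark the element, on the gene's own strand except in Calr and the second Hsp90b1 site, where it reads as the reverse complement. The positions are chr2:34772010-34772058 (Hspa5), chr8:84847060-84847108 (Calr), chr10:86705623-86705671 and chr10:86705518-86705566 (Hsp90b1, first and second) and chr14:118937812-118937860 (Dnajc3).
Hspa5: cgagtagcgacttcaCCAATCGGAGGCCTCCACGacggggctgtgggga
Calr: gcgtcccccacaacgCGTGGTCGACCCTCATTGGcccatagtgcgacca
Hsp90b1, first: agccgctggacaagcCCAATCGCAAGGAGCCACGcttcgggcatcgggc
Hsp90b1, second: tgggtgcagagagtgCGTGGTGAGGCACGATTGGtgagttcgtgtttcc
Dnajc3: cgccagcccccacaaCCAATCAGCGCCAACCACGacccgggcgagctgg
Members with the element had a median log2 fold change of 0.17 and members without it 0.09. The 13 tested genes with the element outside the list had a median of -0.05, with 0 separated in either direction.

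The next stress and biosynthesis lists had medians from 0.07 (aminoacyl-tRNA synthetases) to 0.25 (integrated stress response), against 0.01 over all genes. Without overlap 6.26% of all genes were higher and 5.72% lower, and 11.7% and 2.01% of genes from 100 to 1000 CPM. In the integrated stress response, in which phosphorylated eIF2 favours translation of ATF4, 4 of 19 genes were higher and 1 lower without overlap and the median was 0.25, and 0.13 without aurothioglucose replicate 3. Atf4 itself read 87.8, 80.2 and 73.9 CPM against 94.1, 104 and 89.0 CPM (0.25 ± 0.10, and 0.38 over male libraries alone), all 3 aurothioglucose libraries being above saline, while the one-carbon enzyme Mthfd2 had -0.33. Cytosolic and mitochondrial heat shock chaperones had 6 of 20 higher and 0 lower (median 0.12, and 0.08 without saline replicate 1), among them the small heat shock gene Hspb8 (0.37, and 0.56 over male libraries alone) and mitochondrial Hspa9 (0.22).

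Sterol and fatty acid synthesis genes, which SREBP factors control and which supply surfactant lipid, had 9 of 29 higher and 0 lower without overlap and a median of 0.11, and 0.16 without saline replicate 1. Squalene epoxidase (Sqle) read 71.0, 69.6 and 74.7 CPM against 92.7, 86.7 and 89.6 CPM (0.32 ± 0.13), and the desaturase Sc5d (0.32) and the isomerase Idi1 (0.38) were also separated. Aminoacyl-tRNA synthetases had 6 of 20 higher and 0 lower (median 0.07, and 0.03 without aurothioglucose replicate 1). Nuclear genes of oxidative phosphorylation had 8 of 48 higher and 1 lower (median 0.11, with 0.05 without aurothioglucose replicate 2 and 0.07 without saline replicate 2 or 3). Among all genes from 20 to 100 CPM 7.19% were higher and 5.11% lower (median 0.02). From 100 to 1000 CPM the shares were 11.7% and 2.01% (median 0.05). Cell cycle and mitosis genes had 0 of 25 separated in either direction (median -0.02), with the library scores ranging from -0.51 in aurothioglucose replicate 2 to 0.33 in saline replicate 3. Their median was -0.31 with sex as a covariate, -0.55 over male libraries alone, and from -0.17 without aurothioglucose replicate 3 to 0.20 without aurothioglucose replicate 2.

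**Figure D3:**
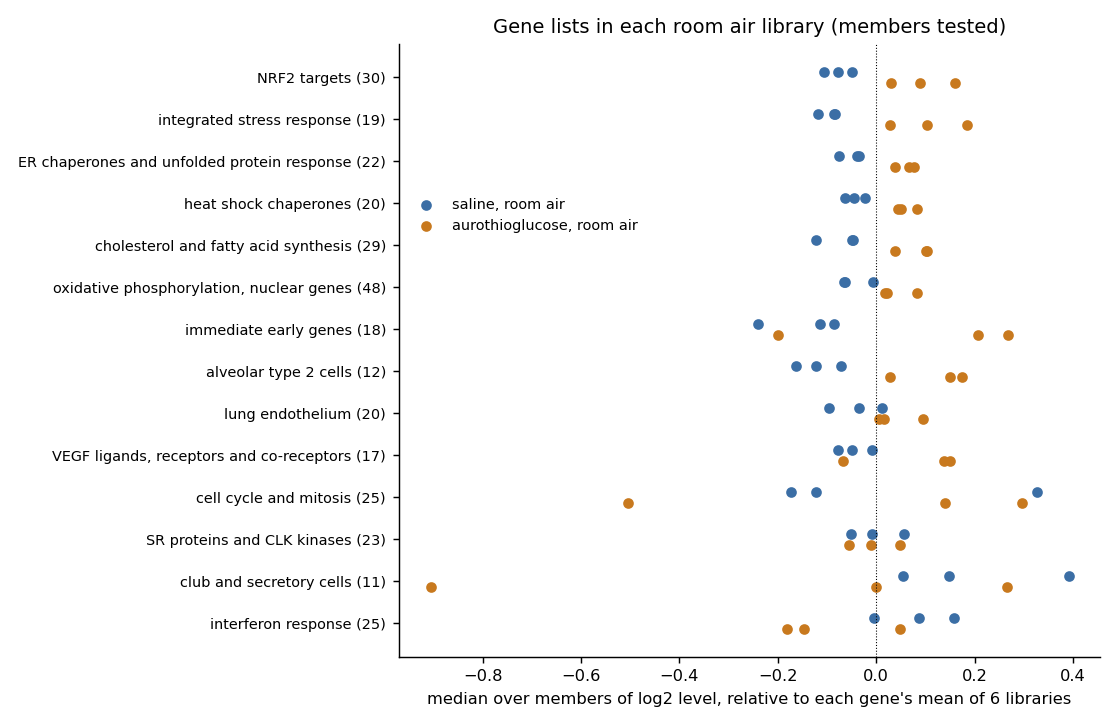
Score of 14 gene lists in each room air library: the median over members of log2 level relative to each gene's mean of the 6 libraries (horizontal axis); blue is saline, orange is aurothioglucose, and the number of members tested is in parentheses. The NRF2, integrated stress, ER chaperone, heat shock, sterol, oxidative phosphorylation and type 2 rows have every aurothioglucose point to the right of every saline point, and cell cycle and club cell points are mixed and wide.

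Of 25 tested interferon response genes 20 were below 0 and 5 above, and none passed the test. STAT2 and IRF9 belong to the complex that type I interferon sends to the nucleus, and it acts on genes for antiviral proteins. Without overlap 0 were higher and 6 lower, against 6.26% and 5.72% of all genes. At an unadjusted p of 0.05, 0 were higher and 7 lower (3.08% and 2.94% of all genes), or 0 and 3 with sex as a covariate. The median log2 fold change was -0.26. Stat2 read 42.0, 43.9 and 47.5 CPM after saline and 35.5, 32.6 and 32.3 CPM after aurothioglucose (-0.41 ± 0.09, SE, n = 3 per group, edgeR adjusted p = 0.384), and the groups did not overlap.

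Oasl2, of the oligoadenylate synthetase family, read 67.4, 52.99 and 62.99 CPM against 42.4, 34.7 and 42.9 CPM (-0.61 ± 0.16), and the guanylate-binding protein Gbp2 had -0.53 (-0.28 over male libraries alone). Both were separated between groups. The ubiquitin-like modifier Isg15 was at 11.1, 10.2 and 9.92 CPM against 9.34, 6.59 and 7.79 CPM, also separated but with a wide error (-0.39 ± 0.28). The list's median was smaller in size with sex as a covariate (-0.19) and over male libraries alone (-0.13), and 0.05 for aurothioglucose in hyperoxia. The scores of aurothioglucose replicates 1 and 3, the female libraries, were -0.15 and -0.18, and that of replicate 2 was 0.05, inside the saline range of -0.01 to 0.16.

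The interferon-stimulated response element, searched as GAAANNGAAA on both strands of the same windows, was present for 3.46% of genes and for 10 of the 19 interferon members with a window (52.6%). Among the 12316 tested genes with a window 395 held it. Of the 10, 0 were higher and 3 lower without overlap, namely Stat2, Gbp2 and Isg15, whose sequences are shown. Capitals mark the element, as its reverse complement in Stat2 and Gbp2. Isg15 holds 3 overlapping matches, of which the middle one is in capitals. The positions are chr10:128270261-128270300 (Stat2), chr3:142620589-142620628 (Gbp2) and chr4:156200866-156200905 (Isg15).
Stat2: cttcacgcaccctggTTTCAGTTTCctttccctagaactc
Gbp2: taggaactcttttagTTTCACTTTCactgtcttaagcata
Isg15: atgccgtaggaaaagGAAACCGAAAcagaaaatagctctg
Members with the element had a median log2 fold change of -0.33 and members without it -0.11. The 385 tested genes with the element outside the list had a median of -0.01, with 5.97% higher and 7.53% lower without overlap, against 6.14% and 5.5% of the genes without it.

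Of 12 markers of alveolar type 2 cells, the surfactant-making epithelium, 11 were above 0 and none passed the test. Without overlap 8 were higher and 0 lower, against 6.26% and 5.72% of all genes, 11.7% and 2.01% of genes from 100 to 1000 CPM and 21.9% and 0% of those above. At an unadjusted p of 0.05, 7 were higher and 0 lower (3.08% and 2.94% of all genes), or 4 and 0 with sex as a covariate. The median log2 fold change was 0.23. Their summed level was 14907 to 15720 CPM after saline and 17213 to 19495 CPM after aurothioglucose, without overlap. Sftpb, surfactant protein B, read 1387, 1349 and 1328 CPM against 1634, 1620 and 1646 CPM, each group tight and apart (0.27 ± 0.08, SE, n = 3 per group, edgeR adjusted p = 0.782).

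Napsa, the protease that processes proSP-B, had 0.31, and the lung chemokine Cxcl15 had 0.30. The phosphate transporter Slc34a2 had 0.23 and the ETS factor Etv5 0.24. Sftpd, a collectin of surfactant, had 0.08. The median was 0.20 with sex as a covariate and 0.29 over male libraries alone. In hyperoxia the same list had 0 of 12 markers separated in either direction, against 5.55% higher and 5.54% lower over all genes in that arm. Its median there was 0.01. The difference between the arms was called for 0 of the 12 genes, with adjusted p at 1.00.

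**Figure D4:**
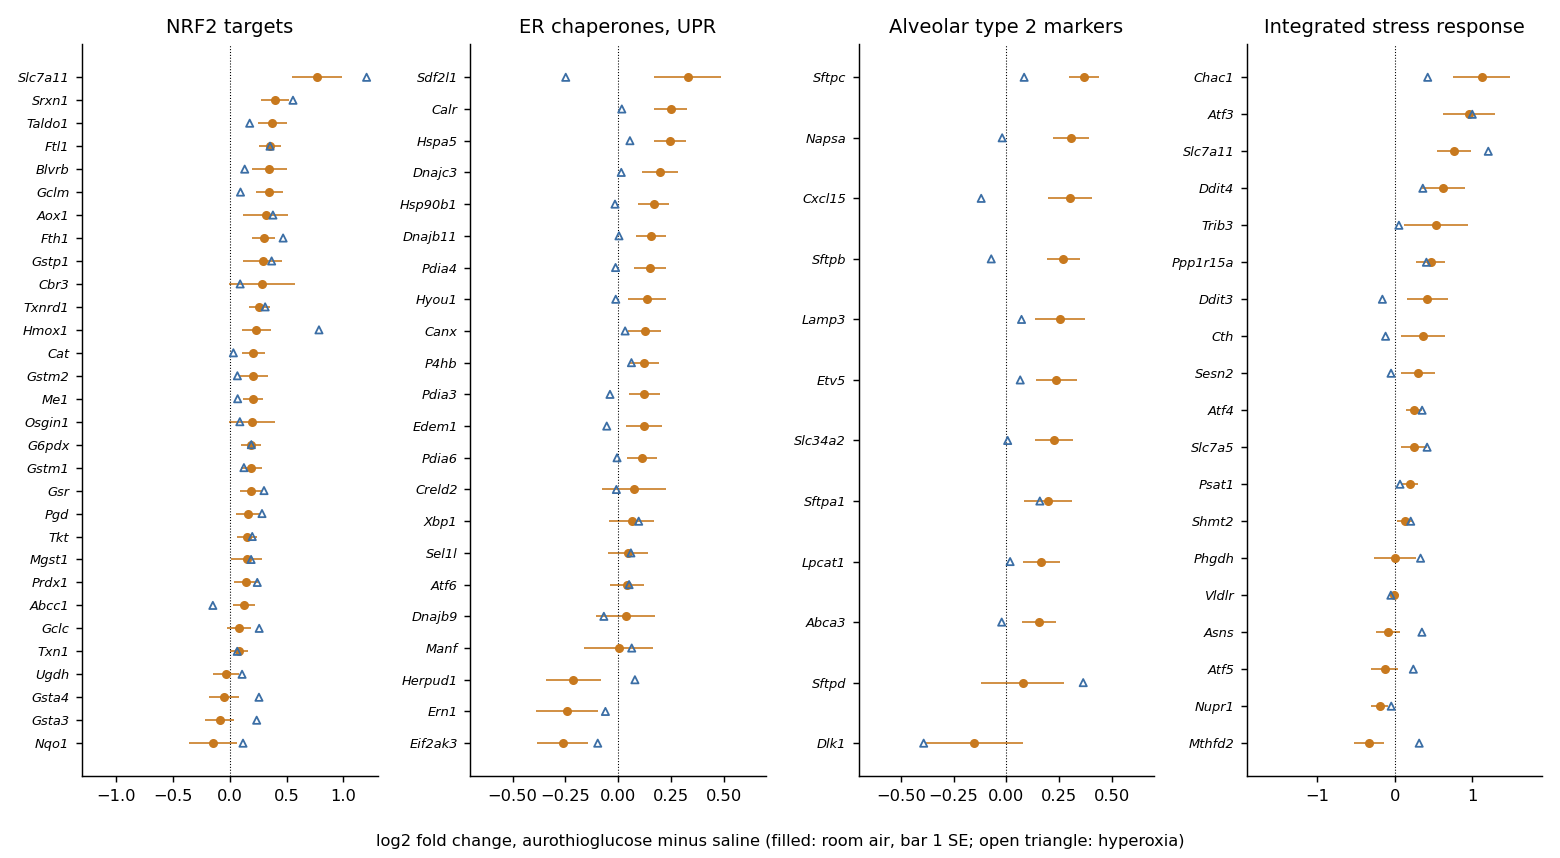
Log2 fold change (aurothioglucose minus saline, horizontal axes, which differ in range) of every tested member of 4 lists; filled circles with bars are room air ± 1 SE, open triangles are hyperoxia. In room air 26 of 30 NRF2 targets, 19 of 22 ER genes, 11 of 12 type 2 markers and 14 of 19 integrated stress response genes are above 0, and in hyperoxia the ER genes have a median of -0.00042 and the type 2 markers one of 0.01.

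Of the other cell types, type 1 markers had 1 of 11 higher and 0 lower (median 0.12, and 0.05 without saline replicate 3), and lung endothelial markers 1 of 20 higher and 0 lower (median 0.07, with 0.04 over male libraries alone and 0.03 without saline replicate 3). Club and secretory markers had 0 higher and 2 of 11 lower (-0.25). Over all genes 6.26% were higher and 5.72% lower without overlap. Bpifb1, a secreted airway protein, read 58.7, 44.2 and 37.4 CPM against 19.4, 29.6 and 12.9 CPM (-1.18 ± 0.41, and -0.66 over male libraries alone). The mucin Muc5ac read 17.0, 16.6 and 14.1 CPM against 12.03, 8.34 and 5.39 CPM (-0.89 ± 0.39). Aurothioglucose replicate 3 was lowest in both. Without that library the club median was 0.03, over male libraries alone it was 0.06, and without aurothioglucose replicate 1 or 2 it was -0.41 or -0.43.

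Ciliated markers had 1 of 12 lower (median -0.21, with -0.13 with sex as a covariate, 0.10 over male libraries alone, -0.34 without aurothioglucose replicate 2 and -0.12 without replicate 3). Lyve1, a marker of lymphatic vessels and interstitial macrophages, read 409, 468 and 494 CPM against 574, 506 and 688 CPM, higher without overlap (0.37 ± 0.11). Male replicate 2 was nearest to saline, and over male libraries alone Lyve1 was at 0.15. Of the 7 tested lymphatic endothelial markers 3 were above 0 and 4 below, and without overlap 2 were higher and 0 lower. Over all genes the shares were 6.26% and 5.72%. The median of these markers was -0.06, with -0.13 over male libraries alone and -0.12 to 0.07 with 1 library left out. Collagen chains had 0 of 23 genes separated in either direction (median 0.01, with 0.04 with sex as a covariate, -0.12 over male libraries alone and -0.03 to 0.06 with 1 library left out). Matrix fibroblast markers had 0 of 14 higher and 1 lower (median -0.06, with -0.17 with sex as a covariate, -0.22 over male libraries alone, and from -0.14 without saline replicate 3 to -0.003 without aurothioglucose replicate 2).

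Angiogenesis is the subject named in the title of the series. Of 17 tested VEGF ligands, receptors and co-receptors 1 was higher and 0 lower without overlap, against 6.26% and 5.72% of all genes. Their median was 0.12, with 0.06 with sex as a covariate, -0.03 over male libraries alone, and from 0.06 without aurothioglucose replicate 1 to 0.20 without replicate 2. Vegfa, the main endothelial growth factor of the lung, read 366, 387 and 341 CPM after saline and 335, 410 and 310 CPM after aurothioglucose, overlapping (-0.05, 95% confidence interval -0.30 to 0.20). The direction turned positive with sex as a covariate (0.06) and over male libraries alone (0.17). Its signalling receptor Kdr also overlapped, at 417, 472 and 412 CPM against 494, 379 and 485 CPM (0.06, 95% confidence interval -0.22 to 0.34, with 0.002 with sex as a covariate and -0.19 over male libraries alone).

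The separated member was the VEGF-binding receptor Flt1, at 122, 119 and 123 CPM against 149, 125 and 151 CPM (0.23 ± 0.09), with male replicate 2 nearest to saline and a value of 0.05 over male libraries alone. Pecam1 (0.09), the Tie2 ligand Angpt1 (0.07) and the hypoxia factor Epas1 (0.08) overlapped. Over male libraries alone these values were -0.01, -0.09 and -0.24, and with sex as a covariate those of Angpt1 and Epas1 were -0.005 and -0.02.

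Among 26 angiopoietin, Tie and Notch genes 5 were higher and 2 lower without overlap, against 6.26% and 5.72% of all genes. Their median was 0.10, with -0.08 over male libraries alone, and from 0.006 without aurothioglucose replicate 3 to 0.17 without replicate 2. Besides Dll1, the Notch feedback inhibitor Nrarp read 33.6, 30.7 and 28.8 CPM against 35.8, 43.4 and 46.4 CPM (0.43 ± 0.15), and the Notch target Hes1 read 57.8, 59.3 and 52.5 CPM against 70.0, 66.3 and 65.7 CPM (0.25 ± 0.11). Angpt2, the vessel-destabilising Tie2 ligand, was lower at 25.7, 22.5 and 21.0 CPM against 18.3, 17.7 and 19.9 CPM (-0.31 ± 0.17).

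Of 23 endothelial transcription factors 3 were higher and 0 lower without overlap, against 6.26% and 5.72% of all genes (median 0.06, with -0.001 with sex as a covariate, -0.01 over male libraries alone, and from 0.01 without aurothioglucose replicate 3 to 0.13 without replicate 2). They were Klf4, Fli1 (0.16) and Foxf1, a forkhead factor of lung mesenchyme and capillaries, at 267, 228 and 241 CPM against 283, 371 and 337 CPM (0.43 ± 0.12). The endothelial gene Tmem100 read 127, 137 and 149 CPM against 151, 194 and 188 CPM (0.36 ± 0.11). Apelin (Apln, 0.40) and the tip cell marker Esm1 (0.87 ± 0.42) were separated with wider errors. The list of 21 apelin, adrenomedullin and tip cell genes had 3 higher and 1 lower without overlap. Its median was 0.07, with -0.06 over male libraries alone and 0.03 to 0.11 with 1 library left out. Among 18 sphingosine 1-phosphate and lysophospholipid genes 3 were higher and 1 lower, S1pr1 and S1pr2 (-0.17, and -0.28 over male libraries alone) being on opposite sides.

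Immediate early genes, which growth factors and handling of tissue switch on within minutes, showed 1 aurothioglucose library unlike the other two. Of 18 tested 7 were higher and 0 lower at an unadjusted p of 0.05, but 2 were higher without overlap, and the median was 0.33. Over all genes 3.08% were higher and 2.94% lower at that p, and 6.26% were higher without overlap. With sex as a covariate 10 were higher at that p and the median was 0.52, limma-voom listed 4, and over male libraries alone the median was 0.51. Fosl2 read 119, 125 and 107 CPM against 129, 176 and 215 CPM (0.57 ± 0.15), and Myc read 28.5, 22.4 and 24.6 CPM against 34.7, 33.7 and 33.5 CPM (0.43 ± 0.15). Nr4a1, an orphan nuclear receptor named after its values were seen, read 20.1, 19.8 and 16.8 CPM against 19.2, 72.0 and 98.8 CPM (1.75 ± 0.51), so replicate 1 lay in the saline range.

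Feedback genes of MAP kinase signalling had 2 of 17 higher and 0 lower without overlap, against 6.26% and 5.72% of all genes (median 0.21, and 0.10 without aurothioglucose replicate 3). TGF-beta and BMP genes had 4 of 29 higher and 0 lower (median 0.10, with 0.05 with sex as a covariate, -0.003 over male libraries alone, 0.05 without aurothioglucose replicate 3 and 0.06 without saline replicate 3). In that list the ligand Bmp2 read 18.6, 21.7 and 18.9 CPM against 26.1, 25.7 and 37.3 CPM (0.59 ± 0.17), and the SMAD repressor Skil had 0.29; over male libraries alone they were at 0.39 and 0.18.

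The hyperoxia libraries share no sample with the room air ones, although all 12 share the fit's estimate of spread, so the genes chosen in room air could be looked at again there. Sex moved with the injection in hyperoxia too, but with more female libraries after saline. Among the 11928 genes of at least 5 CPM, 862 were higher (7.23%) and 619 lower (5.19%) without overlap in room air. Of the 862, 637 had the same sign in hyperoxia (73.9%, against 50.9% of all such genes above 0), and 144 were higher without overlap there too (16.7%, against 6.14% of all). Of the 619, 417 had the same sign (67.4%, against 49.1% below 0), and 77 were lower without overlap (12.4%, against 5.68%). Opposite separation occurred for 12 of the 862 and 12 of the 619. Their median log2 fold change was 0.21 in room air and 0.07 in hyperoxia for the first set, and -0.29 and -0.08 for the second.

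Across the 11928 genes the log2 fold changes of the 2 arms correlated at Pearson's r = 0.22, with 60.3% of the same sign. Over all tested genes r was 0.04. The correlation is across genes and carries no test.

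S1pr1 (0.59), Klf4 (0.59), Bcl6b (0.48), Dusp8 (0.67), Slc25a25 (0.51), Kcne2 (0.67) and Timp3 (0.17) were higher without overlap in hyperoxia as well, whereas Sftpc (0.08), Dll1 (0.18) and Sox9 (-0.03) overlapped. Clk1 (-0.38), Rbm5 (-0.23), Adamts10 (-0.27), D4Wsu53e (-0.53), Srek1 (-0.23) and Stat2 (-0.28) were lower without overlap. Ogt (-0.19), Appl2 (-0.06) and Tgtp1 (0.01) overlapped, and Serac1 was higher without overlap (0.07). Pde4b, a phosphodiesterase that breaks down cyclic AMP, is the 1 gene that edgeR called for aurothioglucose in hyperoxia (1.54, adjusted p = 0.0457, percent called 0.00634). In room air Pde4b read 134, 122 and 194 CPM against 192, 278 and 363 CPM, overlapping by 1 library (0.89 ± 0.21, edgeR adjusted p = 0.498).

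**Figure D5:**
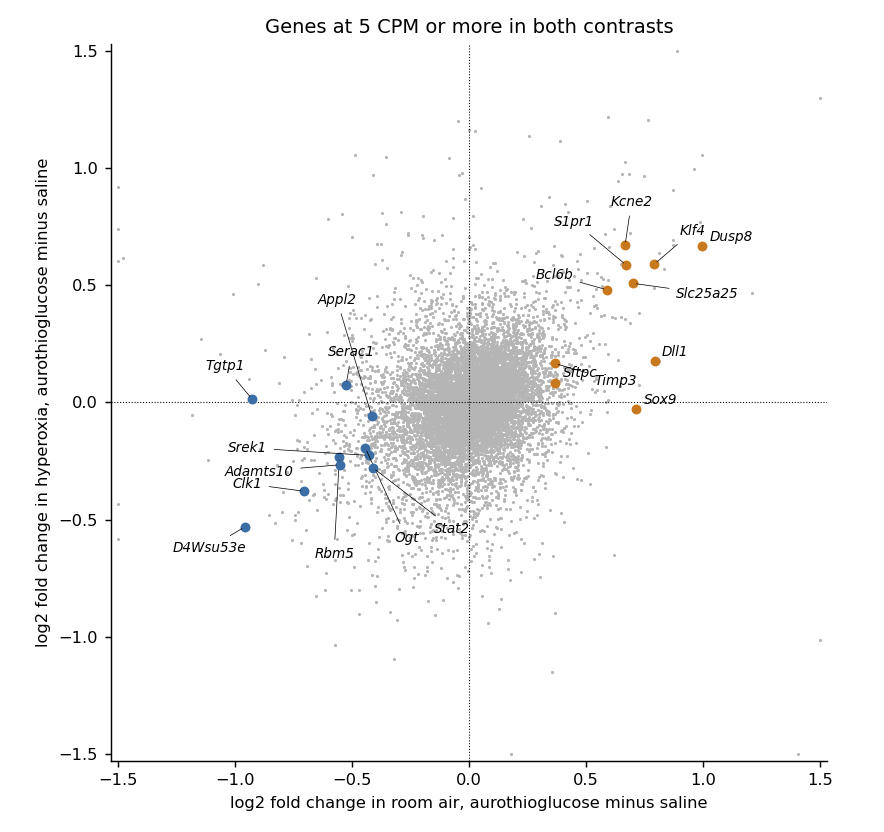
Log2 fold change for aurothioglucose minus saline in room air (horizontal axis) and in hyperoxia (vertical axis) of the 11928 genes of at least 5 CPM; 10 genes beyond 1.5 are drawn at the edge, and the 10 leading genes of room air in each direction are coloured and named. Of the higher genes 9 are also above 0 in hyperoxia and of the lower genes 8 are also below 0.

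For the NRF2 list the counts in the 2 arms were close. In room air 13 of 30 members were higher without overlap (6.26% of all genes), and in hyperoxia 14 (5.55% of all genes in that arm). The medians were 0.20 and 0.19. Member by member the values differed: Hmox1 was 0.23 in room air and 0.78 in hyperoxia, Slc7a11 0.76 and 1.20, and Gclm 0.35 and 0.09. The test of the difference between arms called 0 of the 30 members.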

How the data were processed

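The deposited table holds the authors' raw count of reads for each gene symbol in 12 libraries, with nothing normalized. The labels' protocols state that RNA of lavaged lungs was amplified to cDNA (NuGEN Ovation kit), turned into Nextera XT libraries and read from both ends on an Illumina HiSeq. Bowtie2, Cufflinks, DESeq and mm10 appear, with no version, per the submitters' processing notes. How reads were counted, whether strand was used and which annotation served is not given in the sources used here, so near-identical copies (ferritin, metallothionein and ribosomal protein genes) and overlapping genes are uncertain. Amplified reads are not independent molecules.

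From these counts, filterByExpr (at least 10 counts in enough libraries, at least 15 in total) kept 15761 genes holding 99.96% of all counts. All 12 libraries were scaled by TMM and fitted with a mean for each group and 8 residual degrees of freedom by the quasi-likelihood test of edgeR (version 4.0.16, in R 4.3.3), two-sided, with Benjamini-Hochberg adjustment over every tested gene and a threshold of 0.05. Adjusted p-values without another tool named are edgeR's, intervals are 95%, and the test was tried on simulated data first. Components were computed on log2 CPM (prior count 2). Symbols were looked up in RefSeq GRCm38.p6, where 21912 matched by symbol and 1422 by synonym. Positions span the gene, and the genes printed with one are protein-coding there. Between replicates of a room air group, chi-square divided by its degrees of freedom was at least 6.27, so no pair agreed within sampling noise.

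Gene lists and members were chosen with earlier results of these data known, and lists are described by counts and medians without a test. Named were the 10 genes of smallest p in each direction of at least 5 CPM without overlap. Predicted genes, Xist, Tsix and Y-linked genes were left out of these, and other X-linked genes were kept. Also named were 16 genes fixed by function, up to 4 separated members per list, and the 5 non-mitochondrial genes of highest mean CPM. Others are marked as chosen after their values were seen or are cited as list members. Results were recomputed with DESeq2 (1.42.0), with limma-voom (limma 3.58.1), with RLE in place of TMM, without the filter, with a replicate block, with sex as a covariate, on the 6 room air libraries alone and with each library left out. Added after seeing the data were fits without the 2 hyperoxia libraries rich in Nppa and with male libraries alone. Same-numbered saline and aurothioglucose libraries correlated in their deviations at -0.14, 0.02 and 0.16, so the numbers were not taken as pairs. Some list members are not reported here by name.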

Additional observations from a re-analysis of the deposited data

How the results depend on the processing

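edgeR called 0 genes higher and 0 lower with RLE size factors, without a filter, with sex as a covariate, in the 6 room air libraries alone and over male libraries alone, and limma-voom called 0. DESeq2 called 7 higher and 9 lower. The cause was not tested. Leaving out 1 library gave 0 genes higher in each case and 0 to 1 lower; the 1 was D4Wsu53e (-1.28, edgeR adjusted p = 0.0259) without aurothioglucose replicate 2. With the replicate number as a block, edgeR called 0 genes, with 452 higher and 466 lower at an unadjusted p of 0.05 against 486 and 463 without it. Leaving out 1 library gave 277 to 647 higher and 332 to 622 lower at an unadjusted p of 0.05.

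Of the recomputed fold changes of named genes 19 turned sign (the largest value among these genes in the main analysis was 0.16, for Mt2), 16 passed the threshold and 2245 did neither. With sex as a covariate the sign turned for Vegfa (0.058), Angpt1 (-0.00466) and Epas1 (-0.017). Over male libraries alone it turned for Vegfa (0.17), Kdr (-0.19), Pecam1 (-0.0084), Angpt1 (-0.085), Epas1 (-0.24) and Macf1 (-0.070). With 1 library left out, the lowest and highest values were -0.18 and 0.027 for Vegfa, -0.016 and 0.17 for Kdr, -0.043 and 0.22 for Epas1, -0.19 and 0.23 for Scgb1a1, -0.12 and 0.099 for Lars2, -0.050 and 0.10 for Macf1, -0.068 and 0.15 for Gclc, and -0.11 and 0.29 for Mt2. Removing aurothioglucose replicate 2 gave the lowest value for Vegfa, Scgb1a1, Lars2, Gclc and Mt2.

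Of the recomputed list medians, 764 stayed within 1 SD of the library scores and 74 moved further. With 3 libraries a group and a median standard error of 0.17 on the log2 scale, changes of the size seen for most genes were not detectable here.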

Other observations

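Of the 5 non-mitochondrial genes with the highest mean CPM, Sftpc was higher without overlap (0.37) and Malat1 was at -0.29. Scgb1a1, the club cell secretoglobin, read 13898, 12130 and 9518 CPM after saline and 11289, 16648 and 9578 CPM after aurothioglucose (0.08 ± 0.16, SE, n = 3 per group), a spread within each group that was far wider than the difference. The mitochondrial leucyl-tRNA synthetase gene Lars2 (0.01) and the cytoskeletal linker Macf1 (0.05) also overlapped. Over male libraries alone Scgb1a1 was at 0.49, Lars2 at 0.24 and Macf1 at -0.07, and with sex as a covariate Scgb1a1 was at 0.18 and Lars2 at 0.08.

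Of 19 circadian clock genes 2 were higher and 1 lower without overlap, against 6.26% and 5.72% of all genes. Their median was 0.08, with 0.03 with sex as a covariate, -0.02 over male libraries alone, 0.03 without aurothioglucose replicate 1 and 0.04 without replicate 3. The repressor Nr1d1 read 23.9, 37.8 and 27.7 CPM after saline and 59.8, 43.9 and 44.2 CPM after aurothioglucose (0.72 ± 0.26), and Per2 read 54.7, 49.0 and 52.8 CPM against 48.9, 46.3 and 45.2 CPM (-0.16 ± 0.10). In hyperoxia Per2 was at 0.43, higher without overlap. The hour at which tissue was taken is not given in the labels used here.

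Ppox, an enzyme late in heme synthesis, read 11.7, 12.5 and 12.5 CPM after saline and 4.73, 9.49 and 6.47 CPM after aurothioglucose, lower without overlap (-0.83 ± 0.26), and was lower in hyperoxia too (-0.52). In room air Ppox was at -0.54 with sex as a covariate and -0.36 over male libraries alone. Marco, a scavenger receptor of macrophages, read 10.6, 11.8 and 11.4 CPM against 16.2, 14.1 and 20.1 CPM (0.58 ± 0.23), and was at 0.34 with sex as a covariate and 0.32 over male libraries alone. The list of 14 macrophage markers had 1 higher and 1 lower and a median of -0.02, with 0.02 with sex as a covariate, 0.17 over male libraries alone, and from -0.15 without aurothioglucose replicate 2 to 0.04 without replicate 1. Tnfrsf10b, a death receptor and p53 target, read 12.05, 10.8 and 10.7 CPM against 14.7, 17.9 and 19.3 CPM (0.63 ± 0.22), within a p53 list of 22 genes with 5 higher, 3 lower and a median of 0.02, with 0.07 with sex as a covariate, and from 0.005 without saline replicate 1 to 0.08 without saline replicate 2. Over all genes 6.26% were higher and 5.72% lower without overlap.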
